A study of Mus musculus with 3 samples.

Results

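The 10 Toll-like receptor genes Tlr1 to Tlr9 and Tlr13 were taken by gene symbol from the 55536 mouse genes of each library. No measured value entered that rule, although earlier results of these data were known when it was set. The 3 libraries, biological replicates 1, 2 and 3 of 1 group, are ribosomal-RNA-depleted total RNA of the cytosol of C57BL/6J bone-marrow-derived macrophages, primary cells grown out of marrow progenitors. All of these cells met Lipid A 2 times: 100 ng/ml for 12 h, then 12 h after washing it away, then 100 ng/ml again for 120 min. Lipid A is the membrane anchor of lipopolysaccharide and the part of it that Toll-like receptor 4 recognises. Age and sex are given as not collected, and every cell had the same double exposure, so the levels below describe macrophages after Lipid A and no change with it. The labels name no sort of the cells, and a lower level can be fewer cells with the RNA or less RNA per cell, which bulk libraries cannot tell apart.

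Toll-like receptors are membrane proteins that bind microbial molecules through a leucine-rich repeat ectodomain and signal through a cytosolic TIR domain and adaptor proteins to NF-kappaB, MAP kinases and interferon regulatory factors. One class sits at the cell surface and binds lipids and proteins of microbes. The other sits in endosomes, depends on the chaperone Unc93b1 to get there, has its ectodomain trimmed by lysosomal proteases, and binds nucleic acids. Macrophages are known for carrying many members of both classes. Here Tlr3, Tlr7, Tlr8, Tlr9 and Tlr13 are called endosomal, and Tlr1, Tlr2, Tlr4, Tlr5 and Tlr6 surface, from that background knowledge.

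RefSeq promoter windows on GRCm38.p6, each from 250 bases before the annotated start to 50 bases from it on, were found for 8 of the 10 genes, 10 windows in all, since Tlr1 and Tlr6 have 2 each. The 5 below are shown because they stand before the surface gene with the highest level, Tlr2, and before 4 endosomal genes that were all highest in the same library. Each is written 5′ to 3′ in the direction of its gene. Capitals mark the core of an NF-kappaB-like site (GGGA, any 4 bases, then CC) and of a PU.1-like site (GAGGAA), on either strand. An interferon-response-like element (GAAA, any 2 bases, then GAAA) was searched too and is in none of these 5.
Tlr2, chr3:83841559-83841858, minus strand: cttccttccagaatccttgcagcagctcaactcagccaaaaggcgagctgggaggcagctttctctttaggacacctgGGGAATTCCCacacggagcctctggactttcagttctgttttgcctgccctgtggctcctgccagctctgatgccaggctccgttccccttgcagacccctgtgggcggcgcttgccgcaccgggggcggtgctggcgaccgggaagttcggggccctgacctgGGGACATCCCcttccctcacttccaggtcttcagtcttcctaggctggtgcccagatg
Tlr3, chr8:45410331-45410630, minus strand: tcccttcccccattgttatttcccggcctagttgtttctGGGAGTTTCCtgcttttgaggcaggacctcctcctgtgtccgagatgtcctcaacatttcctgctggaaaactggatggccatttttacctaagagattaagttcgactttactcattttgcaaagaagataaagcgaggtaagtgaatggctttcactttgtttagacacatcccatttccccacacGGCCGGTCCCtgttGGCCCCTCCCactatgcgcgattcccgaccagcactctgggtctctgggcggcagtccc
Tlr8, chrX:167264280-167264579, minus strand: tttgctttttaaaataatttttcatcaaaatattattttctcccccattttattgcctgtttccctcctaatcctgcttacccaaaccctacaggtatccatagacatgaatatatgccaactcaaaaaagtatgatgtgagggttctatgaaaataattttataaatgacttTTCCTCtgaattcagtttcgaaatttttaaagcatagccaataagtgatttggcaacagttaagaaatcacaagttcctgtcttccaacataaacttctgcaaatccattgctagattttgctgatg
Tlr9, chr9:106222348-106222647, plus strand: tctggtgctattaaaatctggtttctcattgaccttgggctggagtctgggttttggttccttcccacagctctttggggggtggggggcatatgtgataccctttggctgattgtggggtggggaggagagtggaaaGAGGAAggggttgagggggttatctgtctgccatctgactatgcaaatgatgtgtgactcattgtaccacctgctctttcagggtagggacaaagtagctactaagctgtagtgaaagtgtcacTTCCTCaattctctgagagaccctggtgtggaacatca
Tlr13, chrX:106143025-106143324, plus strand: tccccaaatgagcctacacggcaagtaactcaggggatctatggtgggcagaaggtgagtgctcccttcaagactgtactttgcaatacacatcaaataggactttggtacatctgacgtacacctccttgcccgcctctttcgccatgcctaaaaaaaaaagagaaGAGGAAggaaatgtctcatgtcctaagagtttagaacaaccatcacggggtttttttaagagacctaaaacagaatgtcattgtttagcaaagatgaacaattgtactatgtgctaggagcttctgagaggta

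In the Tlr2 window the NF-kappaB-like letters began at positions -172 and -8, counted from 0 at the annotated start. In the Tlr3 window they began at positions -211, -23 and -9. Tlr5 held 1 such match, so the NF-kappaB-like letters were in 3 of 10 windows, against 20.8% of the 32544 promoters of the table. The PU.1-like letters, named for a macrophage and B cell lineage factor, were in 4 of 10 windows (Tlr1, Tlr8, Tlr9 and Tlr13), against 28.1% of all promoters. Tlr9 held 2 of them. The interferon-response-like letters were in 1 of 10 windows, of Tlr6, as 2 overlapping matches, against 3.45% of all promoters. The AP-1-like letters TGANTCA were in 1 of 10 windows, of Tlr9, against 7.79%, and TATAAA in 2 of 10, of Tlr6 and Tlr8, against 13.6%. A match describes letters in a window and no bound factor. The annotated RefSeq start of Tlr3 lies 700 bases inside the gene's outermost GENCODE boundary. Those of Tlr2 and Tlr13 lie 159 and 71 bases inside it, and the starts of Tlr1 864 and 5 bases. The starts of Tlr6 lie 931 and 49 bases inside, the former in the window with the interferon-response-like letters. For Tlr5, Tlr8 and Tlr9 the start and the boundary coincide.

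The libraries held 29273913, 64712406 and 37602753 expected counts over mouse genes in replicates 1, 2 and 3, of which the 10 receptors took 0.230%, 0.200% and 0.197%. Levels between genes are in TPM, a unit of transcript abundance that divides counts by transcript length. They come from the authors' gene table, with the SD over the 3 libraries. Intervals and floors of single counts cover counting error only, and the labels call the libraries biological replicates without saying whether they came from separate animals or cultures, so how far the spread is technical is not known. Protein-coding genes held 32.5%, 26.5% and 27.1% of all TPM in replicates 1, 2 and 3. The deposited TPM of a typical protein-coding gene therefore lay higher in replicate 1, with a median log2 ratio of 0.17 to the mean of the other two over 10956 genes. Differences between libraries are given on TMM-scaled CPM, counts scaled to the size of the library and not to transcript length, where that median was -0.0024.

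The macrophage label held on its markers. All 8 macrophage markers, among them Lyz2, Csf1r and Adgre1, reached 1 TPM in every library, with summed TPM of 4368, 4281 and 4217. Markers of B cells and plasmacytoid dendritic cells, which are known for Tlr9 and Tlr7, were low: no B cell marker of 5 and no plasmacytoid marker of 4 reached 1 TPM in every library, Klk1 stood at 0 in all 3. Cd79b, the highest of the B cell markers, came close to that level with 1.10, 0.91 and 1.44 TPM, and Cd79a had 0, 0.02 and 0.04 TPM. The same held for conventional dendritic cell (0 of 5), T and NK cell (0 of 5), fibroblast (0 of 4) and epithelial (0 of 3) markers. Neutrophil markers reached it in 2 of 5 (S100a8 and S100a9, with Ly6g at 0, 0.01 and 0 TPM) and endothelial markers in 2 of 4 (Kdr and Vwf), with summed endothelial TPM of 11.0, 6.96 and 4.66.

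Transcripts of 9 of the 10 receptors were present at 1 TPM or more in every library, where 39.1% of protein-coding genes were. The exception was Tlr5. The receptors summed to 494, 374 and 374 TPM in replicates 1, 2 and 3. Mean deposited levels ran from 99.4 TPM for Tlr2 to 12.0 TPM for Tlr4 among the 9, and 5 of those 9 were endosomal. Absolute levels depend on the quantification: the second one gave 46.1 TPM for Tlr2 and 6.20 TPM for Tlr4, and TPM rescaled to protein-coding plus long noncoding transcripts gave 341 and 40.2 TPM.

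**Figure D1:**
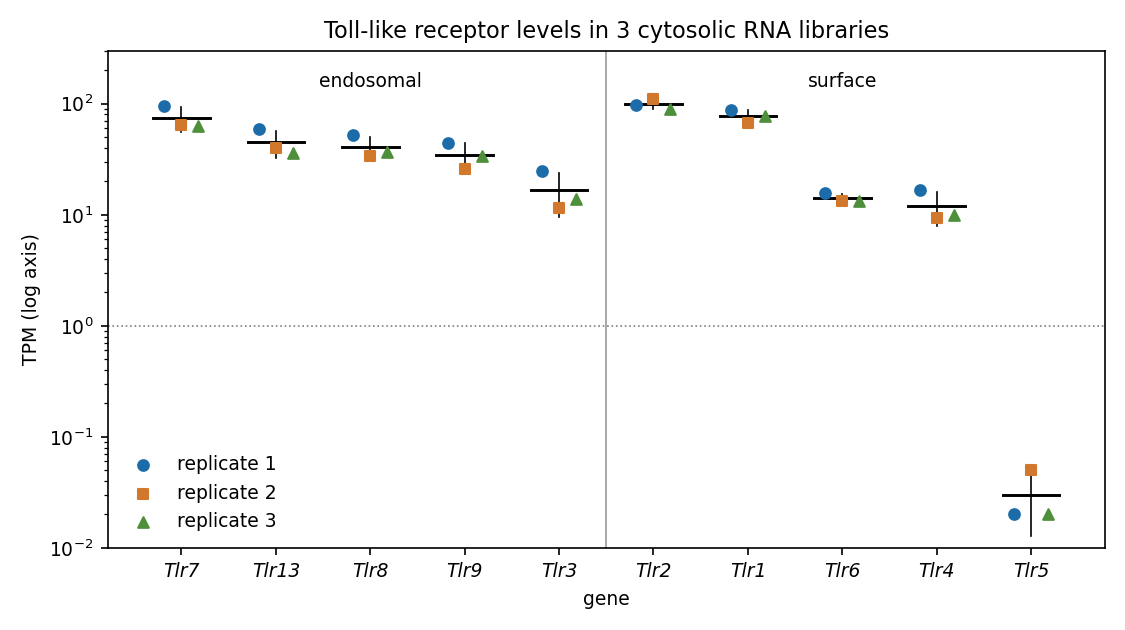
TPM on a log axis of each receptor gene in replicates 1 (circles), 2 (squares) and 3 (triangles), with the mean as a bar and the SD as a line, endosomal genes left and surface genes right; the dotted line is 1 TPM. Tlr2 stands highest at a mean of 99.4 TPM, Tlr4 at 12.0 TPM, and Tlr5 lies far below the line at 0.02 to 0.05 TPM.

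Among the endosomal receptors, Tlr7, a sensor of single-stranded RNA and guanosine, stood highest. It had 96.1, 63.8 and 62.8 TPM in replicates 1, 2 and 3, a mean of 74.2 ± 18.9 TPM (SD, n = 3; ENSMUSG00000044583.13, mm10 chromosome X, 167304929 to 167330558, minus strand). Replicate 1 stood apart from the other two, which were within 1 TPM of each other.

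Tlr13, which recognises a stretch of bacterial ribosomal RNA and has no human counterpart, came next with 58.9, 39.7 and 35.7 TPM, a mean of 44.8 ± 12.4 TPM (chromosome X, 106143204 to 106160493, plus strand). Tlr8, next to Tlr7 in the genome and known in humans as a sensor of RNA breakdown products, had 51.8, 33.9 and 36.7 TPM, a mean of 40.8 ± 9.60 TPM (chromosome X, 167242696 to 167264329, minus strand). The ranges of Tlr13 and Tlr8 overlapped, and Tlr13 was the higher in 2 of 3 libraries.

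Tlr9, the receptor for unmethylated CpG DNA, had 44.5, 25.6 and 34.0 TPM, a mean of 34.7 ± 9.45 TPM (chromosome 9, 106222598 to 106226883, plus strand). Its range overlapped that of Tlr8, although Tlr8 was the higher in 3 of 3 libraries. Tlr3, the receptor for double-stranded RNA and the one receptor of the family that does not use Myd88, was the lowest endosomal member. It had 24.9, 11.6 and 13.8 TPM, a mean of 16.8 ± 7.15 TPM (chromosome 8, 45395665 to 45411080, minus strand). Its highest library, replicate 1, stood just under the lowest library of Tlr9, 24.92 against 25.61 TPM.

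Tlr2 led the surface class and the family. It is the shared chain of receptors for bacterial lipoproteins, pairing with Tlr1 for triacylated and with Tlr6 for diacylated ones. It had 98.0, 110 and 90.03 TPM, a mean of 99.4 ± 10.2 TPM (ENSMUSG00000027995.10, chromosome 3, 83836272 to 83841767, minus strand), and 97.9% of protein-coding genes lay below it. Tlr1 had 87.5, 66.5 and 78.0 TPM, a mean of 77.3 ± 10.5 TPM (chromosome 5, 64924679 to 64933563, minus strand). Tlr2 was above Tlr1 in 3 of 3 libraries and their ranges did not overlap, by a margin of 90.03 against 87.45 TPM. Tlr1 and Tlr7 did overlap, and Tlr1 was the higher in 2 of 3 libraries.

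The other partner, Tlr6, was lower, at 15.7, 13.4 and 13.4 TPM, a mean of 14.2 ± 1.33 TPM (chromosome 5, 64952031 to 64960097, minus strand). Per library the ratio of Tlr1 to Tlr6 TPM was 5.58, 4.96 and 5.84. The ratio of Tlr1 to Tlr2 was 0.892, 0.603 and 0.866, and that of Tlr6 to Tlr2 was 0.160, 0.122 and 0.148. A transcript model of 446 bases held 43.2% of Tlr6 TPM on 4.82% of its counts, so the ratios with Tlr6 depend on it. From models of at least 1000 bases alone, Tlr1 had 83.6, 62.6 and 70.6 TPM and Tlr6 9.61, 6.98 and 7.64 TPM. The partner for triacylated lipoproteins was thus the higher of the pair in 3 of 3 libraries.

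Tlr4, the receptor that binds Lipid A together with the protein of Ly96, had the lowest mean deposited TPM of the 9 expressed receptors. It had 16.7, 9.33 and 9.97 TPM, a mean of 12.0 ± 4.09 TPM (ENSMUSG00000039005.13, chromosome 4, 66827584 to 66930284, plus strand). Tlr2 TPM was 5.86, 11.8 and 9.03 times that of Tlr4 in replicates 1, 2 and 3. Tlr3, Tlr6 and Tlr4 overlapped as neighbours in the order, each pair with the same sign in 2 of 3 libraries. Tlr3 was above Tlr4 in 3 of 3 libraries, but their ranges overlapped too. The last place depends on short transcript models. From models of at least 1000 bases alone, Tlr6 lay below Tlr4 in every library (9.61, 6.98 and 7.64 against 16.5, 8.32 and 9.77 TPM).

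Tlr5, the receptor for flagellin, held 3, 17 and 3 counts in replicates 1, 2 and 3, that is 0.02, 0.05 and 0.02 TPM (chromosome 1, 182954788 to 182976044, plus strand). In replicates 1 and 3 it thus stood at 3 counts, the limit that a count of 0 allows. Tlr11 and Tlr12, the endosomal receptors for profilin that mice have and that are not among the 10, stood at 0.28, 0.14 and 0.16 TPM and at 0.13, 0.08 and 0.15 TPM. Both lay above Tlr5 and below 1 TPM in every library.

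Summed by class, the endosomal receptors had 276, 175 and 183 TPM in replicates 1, 2 and 3, a mean of 211 ± 56.3 TPM, and the surface receptors 218, 200 and 191 TPM, a mean of 203 ± 13.6 TPM. The endosomal sum was the higher in replicate 1 alone, with a ratio of endosomal to surface TPM of 1.27, 0.875 and 0.957. Its mean was 1.03 ± 0.207, so the sums of both classes did not differ beyond the spread between libraries. The spread lay mostly in the endosomal sum, with an SD of 56.3 TPM against 13.6 TPM in the surface sum. Both sums are in deposited TPM, which lay higher in replicate 1 for a typical protein-coding gene.

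Counts of 9 of the 10 receptors differed between the 3 libraries by more than counting error in a chi-square test of homogeneity with TMM-scaled library sizes, adjusted by Benjamini-Hochberg over 14568 genes. Of all genes tested, 71.6% did, so the 9 are read against a background in which most genes differ at this depth. Tlr5, with an adjusted p of 0.0659, was not called, and it entered the test only through replicate 2. The adjusted p values of the called receptors reached up to 4.63e-05, for Tlr6. Without replicate 2 the difference in Tlr2 was not called (adjusted p = 0.942), and without replicate 1 neither were those in Tlr3 (adjusted p = 0.0666) and Tlr6 (adjusted p = 0.687).

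All 5 endosomal receptors were highest in replicate 1 on TMM-scaled CPM, where 34.9% of protein-coding genes were highest in that library. Tlr3 had 137, 71.7 and 74.0 CPM in replicates 1, 2 and 3, a log2 ratio of 0.91 of replicate 1 to the mean of the others. Tlr7 had 449, 333 and 318 CPM, a log2 ratio of 0.46. Tlr13 (0.44), Tlr9 (0.40) and Tlr8 (0.38) had log2 ratios close to that of Tlr7. The median over the 5 was 0.44, beside -0.0024 over the 10956 protein-coding genes. On the deposited TPM all 5 were again highest in replicate 1, where 56.8% of protein-coding genes were, and so they were with DESeq2 size factors and on TPM rescaled to a fixed total of protein-coding plus long noncoding transcripts.

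Surface receptors did not share this pattern as a class. Tlr2 had 442, 588 and 443 CPM, highest in replicate 2 and about level in the other two. Tlr4 had 103, 61.8 and 66.4 CPM, a log2 ratio of 0.68, which is second to that of Tlr3 in the family. Tlr1, at 358, 317 and 332, and Tlr6, at 55.8, 48.9 and 48.8 CPM, were also highest in replicate 1, with log2 ratios of 0.14 and 0.19. On the rescaled TPM, Tlr1 and Tlr6 were no longer highest there, which leaves Tlr4 alone of the surface class. The median of the surface log2 ratios without Tlr5 was 0.17.

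**Figure D2:**
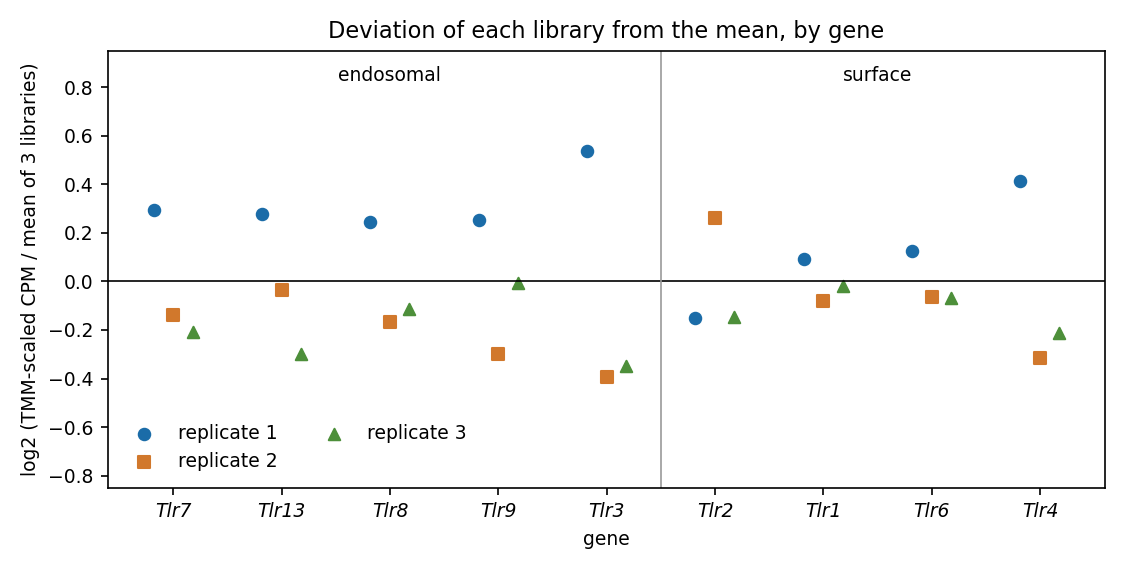
Log2 of TMM-scaled CPM over the mean of the 3 libraries, for the 9 expressed receptors, with replicate 1 as circles, replicate 2 as squares and replicate 3 as triangles. Replicate 1 is the highest point for all 5 endosomal genes on the left and for Tlr1, Tlr6 and Tlr4 on the right, while Tlr2 is highest in replicate 2.

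Ifnb1, the gene of interferon beta, and 4 genes known to be induced by interferon were also highest in replicate 1. These 5 were chosen after values had been seen. They summed to 3653, 1955 and 1914 TPM, with TMM log2 ratios of 1.46 for Ifnb1, 0.87 for Rsad2, 0.75 for Isg15, 0.60 for Irf7 and 0.47 for Ifit1. Summed endothelial markers were highest there too (11.0, 6.96 and 4.66 TPM), but not each of them. Kdr had 7.09, 3.24 and 2.29 TPM and Vwf 2.95, 2.92 and 1.62 TPM. Pecam1 had 0.75, 0.51 and 0.63 TPM, and Cdh5, highest in replicate 2, had 0.24, 0.29 and 0.12 TPM. Summed neutrophil markers were 6.84, 3.40 and 6.61 TPM. Macrophage markers moved in both directions: Fcgr1 had a TMM log2 ratio of 0.65 and Adgre1 of -0.49. Their list median was 187, 135 and 134 TPM in replicates 1, 2 and 3. All sums here and this median are in deposited TPM, which lay higher in replicate 1 for a typical protein-coding gene. The part of any of these in the receptor levels of replicate 1 was not tested.

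Across the 9 expressed receptors the highest library held a median of 1.41 times the TMM-scaled counts of the lowest, beside 1.27 over the 10956 protein-coding genes. Tlr3 was at the upper end with 1.91 times and Tlr1 at the lower with 1.13 times. Tlr7 over Tlr8 TPM was 1.86, 1.88 and 1.71, a mean of 1.82 ± 0.0924. These genes lie 40.6 kb apart on the same strand of chromosome X. Tlr1 and Tlr6 lie 18.5 kb apart on the same strand of chromosome 5.

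The receptors share a gene structure in which few introns interrupt the coding region, and this bears on how reads are assigned. In the leading transcripts of Tlr1, Tlr2 and Tlr6 the coding region lies in 1 exon, and in Tlr5, Tlr7, Tlr8, Tlr9 and Tlr13 at least 98.5% of it lies in the largest exon. Tlr4 has 89.7% in its largest exon and Tlr3, with 4 coding exons, 68.3%. GC content of the leading transcripts ran from 39.4% in Tlr4 to 56.2% in Tlr9.

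Tlr1 and Tlr6 are close copies of each other, and their levels carry that uncertainty. Of the stretches of 75 bases in Tlr1-201, 340 or 12.6% were found letter for letter in Tlr6, as were 9.44% of those in Tlr6-201 in Tlr1. No such stretch of the leading transcripts of the other 8 receptors was found in an annotated transcript of another gene. Their other models were not searched. The only gene overlapping a receptor was Gm45542, antisense to Tlr3, with 0, 0 and 2 counts. Whether counting used strand is not given in the sources used here, and without strand the reads of this pair cannot be told apart.

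Most receptors had 1 transcript model that carried over 50% of the gene's TPM: 8 of the 9 expressed receptors did in the first quantification. Tlr2 and Tlr9 have 1 model each. Tlr13-201 held 99.6% ± 0.699 of Tlr13 TPM and Tlr4-201 95.04% ± 5.35 of Tlr4 TPM. The leading models of Tlr1 (61.6% ± 1.99), Tlr7 (59.1% ± 2.26), Tlr6 (56.8% ± 4.62) and Tlr8 (55.7% ± 5.83) held smaller shares. Tlr3, with 9 models, was the exception: Tlr3-205 held 42.7% ± 3.38.

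A second deposited quantification named the same leading model for 8 of the 9. To Tlr8-201 it gave 0% of Tlr8 TPM in every library, where the first gave 23.6%, 19.8% and 34.8% in replicates 1, 2 and 3. It gave Tlr3-205 57.8% ± 0.831 of Tlr3 TPM and Tlr7-201 37.96% ± 1.28 of Tlr7 TPM, so there Tlr7 was the receptor with no model over 50%. For Tlr6 it put Tlr6-202, a model of 446 bases, first with 57.0% ± 3.84 of the gene's TPM. In the first quantification Tlr6-202 already had 38.7%, 48.0% and 42.8% of Tlr6 TPM in replicates 1, 2 and 3, but 4.82% of its counts on average. TPM divides by length, so a few reads on a short model raise a gene's TPM by a large part.

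Models under 1000 bases added to the TPM of other receptors in the same way. They held 21.04% of Tlr7 TPM on 0.933% of its counts, 18.3% of Tlr8 TPM on 1.74%, 14.9% of Tlr3 TPM on 1.44% and 6.59% of Tlr1 TPM on 0.536%. From models of at least 1000 bases alone, Tlr6 had 9.61, 6.98 and 7.64 TPM, a mean of 8.08 ± 1.37 TPM, and Tlr4 16.5, 8.32 and 9.77 TPM, a mean of 11.5 ± 4.36 TPM. On that measure Tlr4 stood above Tlr6 in 3 of 3 libraries, and Tlr9 (34.7 ± 9.45 TPM) above Tlr8 (33.4 ± 8.16 TPM) on the mean.

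**Figure D3:**
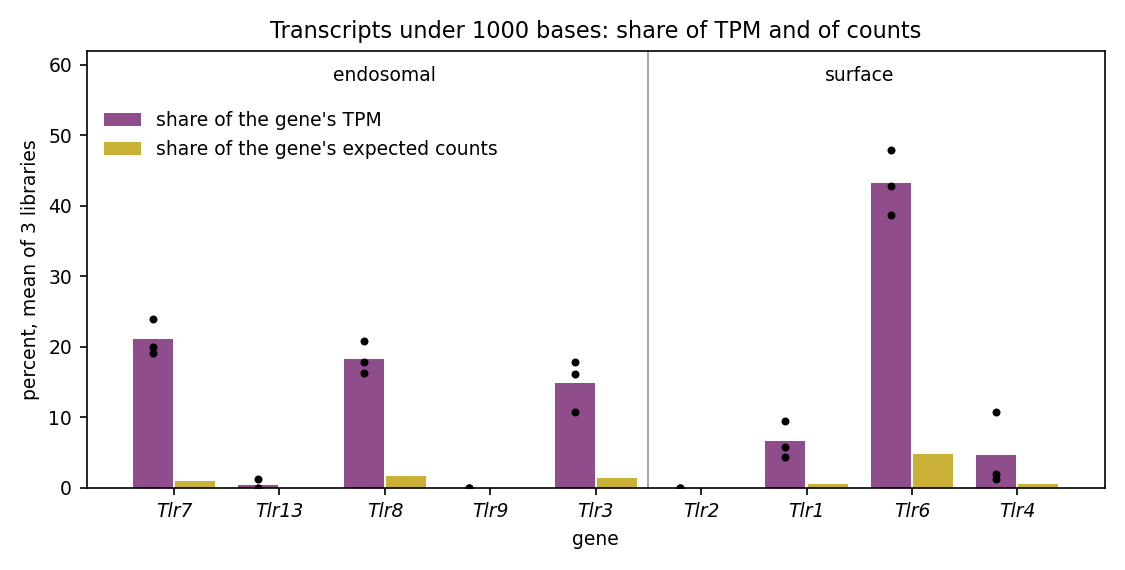
Percent of each gene's TPM (purple) and of its expected counts (yellow) that lay in transcript models under 1000 bases, as bars from 0 for the mean of 3 libraries, with the TPM shares of single libraries as points. Tlr6 has the tallest TPM bar at 43.2% on 4.82% of counts, while Tlr2 and Tlr9 have no such model.

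Genes that work with the receptors were present for nearly every step. Of 31 genes in 6 lists, 27 reached 1 TPM in every library, beside 39.1% of protein-coding genes. All 5 co-receptor genes did. The lists were chosen with earlier results of these data known, so 27 of 31 is a description and no independent result. Cd14, which passes Lipid A on to the Tlr4 complex, had 193, 337 and 153 TPM, and its ratio to Tlr4 TPM was 11.5, 36.1 and 15.3. Ly96, whose product MD-2 holds Lipid A against Tlr4, had 29.95, 24.1 and 22.1 TPM and stood at 1.79, 2.58 and 2.21 times Tlr4. Cd180, a receptor-like protein related to Tlr4, had 243, 170 and 140 TPM, and its partner Ly86 105, 64.9 and 70.6 TPM. Cd36, a scavenger receptor that aids Tlr2 with Tlr6, had 23.6, 35.6 and 29.5 TPM. All 5 stood above Tlr4 itself in every library.

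All 6 chaperone and routing genes reached 1 TPM in every library. Unc93b1, which carries the endosomal receptors to endosomes, had 214, 191 and 208 TPM, a mean of 204 ± 11.8 TPM. The summed endosomal receptors were 1.29, 0.914 and 0.880 times that. Slc15a3, an endolysosomal peptide and histidine transporter, stood at 268 ± 26.1 TPM and the related Slc15a4 at 14.9 ± 3.63 TPM. Hsp90b1 and Cnpy3, which fold Toll-like receptors in the endoplasmic reticulum, stood at 96.3 ± 6.83 and 23.6 ± 1.20 TPM. All 4 genes of proteases that can cleave the ectodomains stood above each endosomal receptor in every library, from Ctsl at 105 ± 22.0 TPM to Ctsb at 1665 ± 183 TPM.

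Of 6 nucleases that release or remove the nucleic acids these receptors see, 5 reached 1 TPM. Pld3 and Pld4, exonucleases that shorten single-stranded DNA and RNA in endolysosomes, stood at 130 ± 9.83 and 122 ± 29.5 TPM, and Dnase2a, the lysosomal DNase, at 23.0 ± 0.799 TPM. Rnaset2a and Rnaset2b, near-identical copies between which reads can be split, are reported as uncertain at 44.2 ± 2.96 and 145 ± 14.9 TPM. Dnase1l3 had 1.09, 0.39 and 0.49 TPM and passed 1 TPM in replicate 1 only.

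Of 6 TIR adaptor genes, 5 reached 1 TPM. Pik3ap1, which links the receptors to PI3 kinase, stood at 255 ± 34.0 TPM and Myd88, the adaptor of all members but Tlr3, at 56.3 ± 10.6 TPM. Ticam2 and Ticam1, the TRAM and TRIF adaptors of the interferon branch, stood at 23.1 ± 2.39 and 16.2 ± 2.34 TPM, and Tirap, which brings Myd88 to surface receptors, at 3.39 ± 0.278 TPM. Sarm1 had 0, 0.01 and 0 TPM. Of 4 genes that restrain the receptors, Tollip (19.1 ± 3.01 TPM) and Rnf216 (5.01 ± 0.684 TPM) reached 1 TPM. Sigirr had 0.41, 0.18 and 0.17 TPM and Il1rl1 0, 0 and 0.01 TPM.

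**Figure D4:**
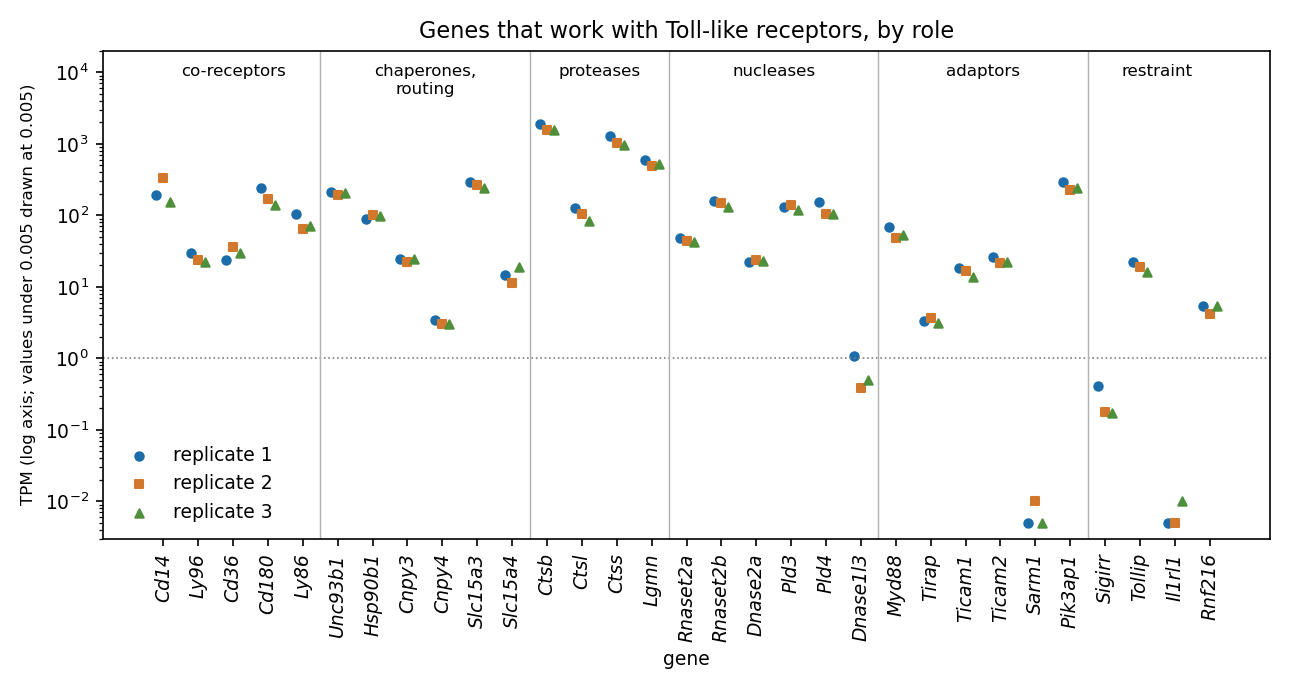
TPM on a log axis of 31 genes that work with Toll-like receptors, grouped by role, in replicates 1 (circles), 2 (squares) and 3 (triangles), with values under 0.005 drawn at 0.005 and 1 TPM as the dotted line. The proteases Ctsb, at 1665 TPM, Ctss and Lgmn stand highest, while Dnase1l3, Sarm1, Sigirr and Il1rl1 are the 4 genes not above the line in all libraries.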

How the data were processed

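Values came from a gene table and a pair of transcript tables per library. Per the file headers, the gene table and first transcript table hold expected counts, TPM and bounds of a TPM interval, used as a deposited signal. The first transcript table also gives each model's percent of its gene's TPM, as deposited by the authors. The second transcript table, deposited beside it, holds TPM and estimated counts, both summed per gene. The build is mm10 and the annotation GENCODE M21, per the file headers; the sources used here name neither aligner nor quantifiers. Rows that name no mouse gene stayed out of library sizes.

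Expected counts were rounded for the chi-square test and for TMM factors (edgeR 4.0.16) or, as an alternative, DESeq2 1.42.0 size factors. A gene entered with 10 or more counts in any library, and calls are at an adjusted p under 0.05. The test was tested on simulated data. No test between conditions exists with 1 group. All 10 members, Tlr11 and Tlr12, every gene of the pathway lists and overlapping genes could be named; the interferon genes were added after values were seen. Motifs were sought on both strands. Other tools were scipy 1.17.1, pandas 2.3.3, numpy 2.4.6, R 4.3.3, matplotlib 3.10.9 and Python 3.11.15. The rule for members used gene symbols and no measured value. Members and lists were still chosen with earlier results of these data known.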

Additional observations from a re-analysis of the deposited data

How the results depend on the processing

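Of 211 values from 40 results recomputed under alternatives, 174 stayed the same by a rule for their kind. Another 34 moved further and 3 lost their call. A p-value stayed the same if it kept its call, and a count if it stayed within a set ratio of the reported one. Other values stayed the same if they moved by less than the SD between libraries. For the median log2 ratio of the endosomal receptors that SD was over genes. Mean TPM of the 9 expressed receptors moved beyond their spread in the second quantification and on rescaled TPM. The order of levels kept 10 of 10 ranks on rescaled TPM and 6 in the second quantification, and 6 with transcripts of at least 1000 bases, an alternative chosen after seeing the data. With a library left out it kept 8 to 10 ranks, Tlr6 passing Tlr3 without replicate 1 and Tlr7 passing Tlr1 without replicate 3. The ratio of endosomal to surface TPM was 1.03, or 1.31 without Tlr7 and Tlr2, and 0.916 to 1.11 with a library left out. It turned below 1 without replicate 1 and, at 0.963, with transcripts of at least 1000 bases. The difference of mean log2(TPM + 1), endosomal minus surface, was 1.14, against 0.889 in the second quantification and 1.75 when 0.1 was added in place of 1, and 1.00 to 1.24 with a library left out, with Tlr5 near 0 in the surface class. Receptors with counts that differed between libraries numbered 7 to 9 with a library left out, and all genes called 7185 to 8071. The second quantification called 15790 genes, against 10435. The numbers of genes tested in these runs were not recorded, so none of these counts can be set beside the 71.6% of the main run. Surface receptors highest in replicate 1 numbered 3 on TMM-scaled counts, 1 on rescaled TPM and 1 on the rescaled second quantification. The number at 1 TPM stayed at 9 and that with a leading transcript at 8 with a library left out. The cause was not tested for the other shifts. No paired analysis was possible because the labels give 1 group.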
